A study of Mus musculus with 12 samples.

Results

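The genes described here are 10 markers of the colonic crypt base and targets or feedback regulators of Wnt signalling, Lgr5, Axin2, Ascl2, Smoc2, Sox9, Lrig1, Cd44, Rnf43, Znrf3 and Ephb2, called the members below. They were chosen by name, as genes known from the crypt, by a rule that uses no measured value but with earlier results of these data known. They are 10 of the 46517 genes in the count tables and 10 of the 12522 genes with enough counts to be tested. RNA was measured by sequencing in intestinal epithelial cells (IECs) that EDTA had released from the colon of C57BL/6 mice aged 7 to 9 weeks. The mice were wild type (WT) or lacked Nfkb2 (Nfkb2-/-, called KO below), and within each genotype they were untreated or had received DSS (dextran sulfate sodium, a polymer that injures the colonic epithelium when drunk) for 48 h. Each of the 4 groups held 3 samples that the labels call biological replicates, so 12 samples were compared. The Nfkb2-/- label names no Cre or promoter that would restrict the deletion to the epithelium. The labels put the share of CD45.2-negative, EpCAM-positive cells in such preparations at about 90% by flow cytometry.

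The colonic epithelium renews itself from stem cells at the base of the crypts, and Wnt signalling holds these cells in their dividing state. Wnt ligands bind Frizzled receptors with LRP coreceptors, which stops the destruction complex from degrading beta-catenin, and beta-catenin with TCF/LEF factors then switches on target genes. R-spondins amplify the signal by binding LGR receptors and removing the ubiquitin ligases Rnf43 and Znrf3, which would otherwise take Frizzled off the cell surface. Nfkb2 encodes the precursor and the processed subunit of the noncanonical NF-kB pathway.

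Promoter sequences are shown for the members that changed in at least 1 comparison and for which RefSeq gave one (Axin2, Ascl2, Lrig1 and Cd44), so that the start regions of genes that fell can be read beside that of a gene that rose. Ephb2 is added because its window held the single match to the NF-kB consensus among the members, and capitals mark that match. Each window runs 5′ to 3′ on the gene's strand, from 250 bases before to 50 after the start, on GRCm38.p6.
Axin2 promoter, chr11:108920099-108920398, plus strand: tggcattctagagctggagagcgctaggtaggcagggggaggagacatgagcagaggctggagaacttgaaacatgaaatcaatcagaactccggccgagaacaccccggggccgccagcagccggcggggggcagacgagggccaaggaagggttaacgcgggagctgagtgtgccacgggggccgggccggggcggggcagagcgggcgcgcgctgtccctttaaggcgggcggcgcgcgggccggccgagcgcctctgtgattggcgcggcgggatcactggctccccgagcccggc
Ascl2 promoter, chr7:142969215-142969514, minus strand: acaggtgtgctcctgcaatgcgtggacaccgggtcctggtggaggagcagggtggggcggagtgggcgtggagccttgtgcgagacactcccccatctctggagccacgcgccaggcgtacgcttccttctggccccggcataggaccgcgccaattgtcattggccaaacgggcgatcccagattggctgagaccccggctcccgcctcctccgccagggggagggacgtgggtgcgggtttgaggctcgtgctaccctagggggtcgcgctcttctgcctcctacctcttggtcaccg
Lrig1 promoter, chr6:94700096-94700395, minus strand: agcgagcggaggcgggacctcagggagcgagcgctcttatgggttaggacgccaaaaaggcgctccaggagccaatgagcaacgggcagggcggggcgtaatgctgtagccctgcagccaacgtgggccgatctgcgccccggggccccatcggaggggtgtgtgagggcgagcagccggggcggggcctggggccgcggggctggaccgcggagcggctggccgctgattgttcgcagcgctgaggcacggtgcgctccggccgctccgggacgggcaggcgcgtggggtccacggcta
Cd44 promoter, chr2:102901616-102901915, minus strand: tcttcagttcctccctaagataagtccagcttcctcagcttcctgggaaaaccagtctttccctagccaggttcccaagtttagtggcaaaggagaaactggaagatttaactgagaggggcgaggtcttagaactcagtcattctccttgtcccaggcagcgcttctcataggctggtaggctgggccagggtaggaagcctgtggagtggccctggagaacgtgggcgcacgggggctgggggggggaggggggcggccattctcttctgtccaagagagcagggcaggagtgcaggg
Ephb2 promoter, chr4:136835963-136836262, minus strand: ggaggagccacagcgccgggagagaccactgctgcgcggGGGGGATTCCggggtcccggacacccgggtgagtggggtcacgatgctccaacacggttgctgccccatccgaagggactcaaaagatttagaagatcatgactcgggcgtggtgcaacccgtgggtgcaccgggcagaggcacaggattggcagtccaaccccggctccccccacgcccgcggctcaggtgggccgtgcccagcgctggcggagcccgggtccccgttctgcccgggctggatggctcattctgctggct

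RefSeq held windows for 6 of the 10 members, 7 windows in all because Rnf43 had 2 starts. None of the 7 contained the TCF/LEF core CTTTGAT or its variant CTTTGAA on either strand, and 8.65% of all 32851 mouse promoter windows of this length held one or the other. The match to the NF-kB consensus in Ephb2 lay at bases 40 to 49 of the window, and 4.51% of all windows held a match on either strand. The windows of Axin2 and Lrig1 were rich in C and G (70% and 73%) with 31 and 35 CpG dinucleotides, while that of Cd44 had 58% and 6 and those of all promoters had medians of 52.7% and 7. These matches describe letters in the windows and say nothing of binding.

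Sequencing depth was even, at 5595909 to 8117740 counts assigned to genes per library, and 3 counts corresponded to 0.356 to 0.530 CPM across libraries (CPM is a gene's count relative to the total of its library, scaled by the trimmed mean of M values, TMM). Nfkb2 followed the labels: it lay at 30.8, 36.1 and 43.7 CPM in untreated WT and at 11.7, 17.5 and 13.9 CPM in untreated KO (log2 fold change −1.36 ± 0.20 SE, adjusted p = 0.00123), and at 39.6 to 46.1 against 15.6 to 19.6 CPM under DSS (−1.28 ± 0.20, adjusted p = 0.00224). All WT libraries are numbered before all KO libraries in the labels, and the order of library numbers and the genotype cannot be told apart. Replicate 3 of untreated WT stood apart from the other 2 libraries of its group: for 9 of the 10 genes it was the highest of the 3, against 35.9% of all genes tested, and its median log2 ratio to the other 2 was 0.94 over the 10 genes (0.21 to 2.41). Its summed level of 20 proliferation genes was 2007 CPM against 1356 and 1451, and that of 10 epithelial identity genes 23502 CPM against 28316 and 31364. Its summed level of 22 leukocyte genes was 1733 CPM against 1247 and 1318. Values without this library are plotted below for all 10 members and given beside the results that turn on untreated WT. In bulk RNA of this kind, fewer cells of a type and less RNA per cell cannot be told apart.

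DSS lowered 4 of the 10 genes in KO mice, the stem cell markers Lgr5, Ascl2 and Smoc2 and the adhesion receptor Cd44, and raised none. In WT mice it lowered Axin2 and raised Lrig1. Under DSS Sox9 was higher in KO than in WT, and none of the 10 passed the test between untreated genotypes or for a different DSS response in the 2 genotypes. Of all 12522 genes tested, 6.3% passed in the DSS comparison in WT, 3.92% in that in KO, 3.48% between untreated genotypes, 3.11% between genotypes under DSS and 1.7% in the interaction. A gene passed when its adjusted p (edgeR, Benjamini-Hochberg over all genes tested) was under 0.05. All 10 genes were abundant enough to be tested, although Lgr5, Axin2 and Ascl2 each had fewer than 10 counts in at least 1 library.

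**Figure D1:**
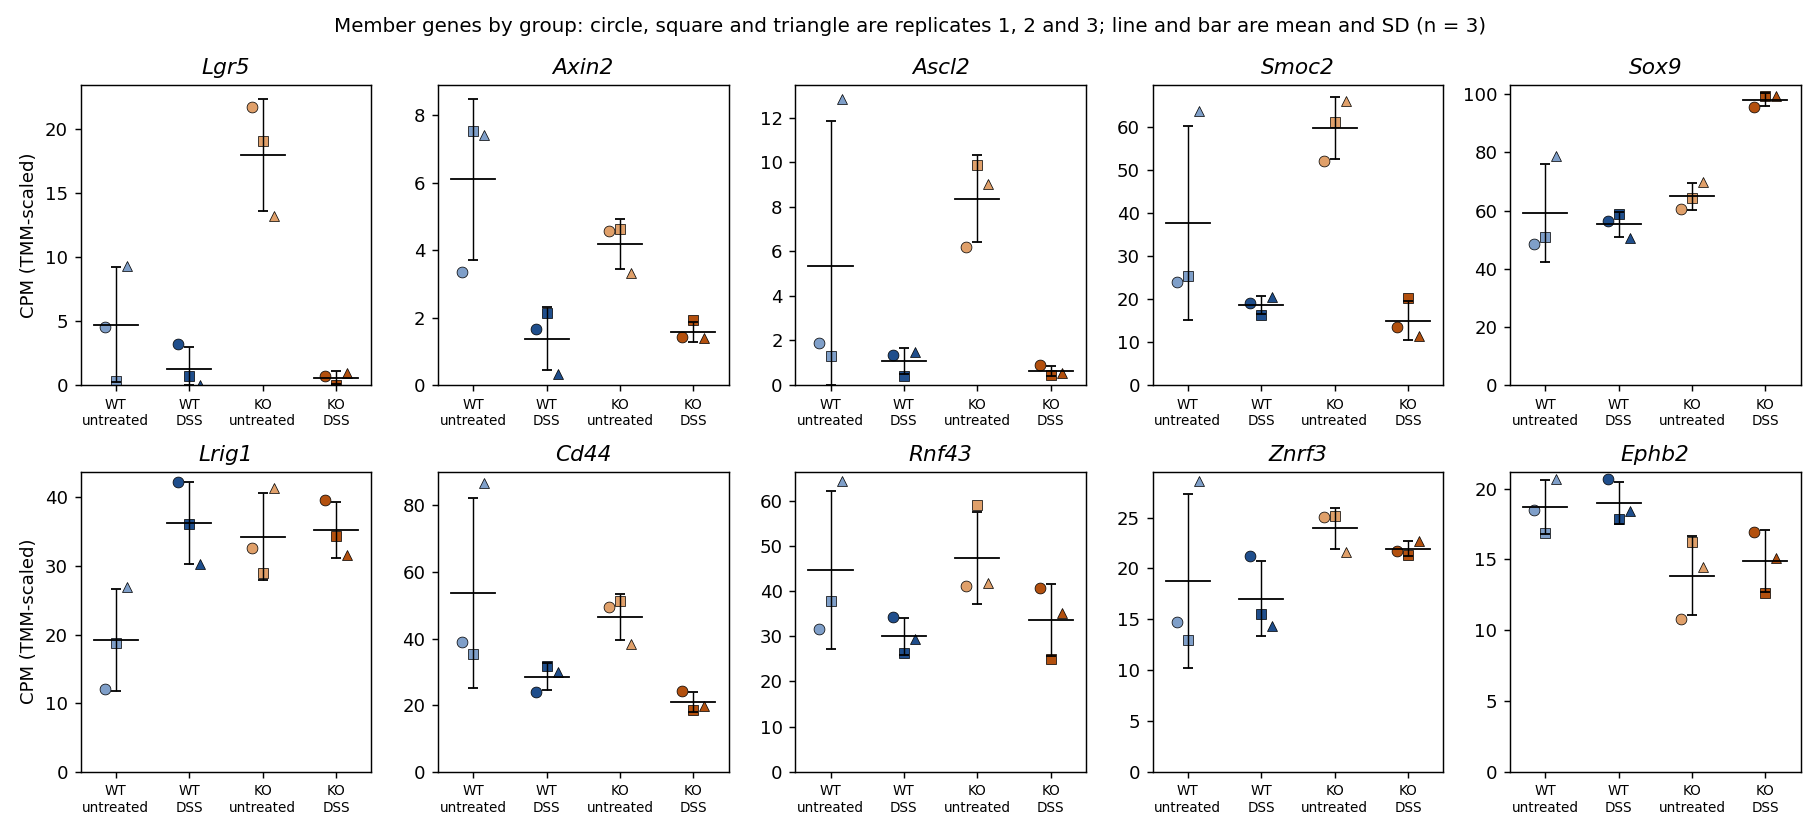
TMM-scaled CPM (vertical axes, each from 0) of the 10 genes in the 4 groups (horizontal axes); circle, square and triangle are replicates 1, 2 and 3, and the line and bar are mean and SD (n = 3), cut at 0 where the SD exceeds the mean. In the Lgr5, Ascl2, Smoc2 and Cd44 panels each KO library under DSS lies below each untreated KO library, and in most panels the triangle of untreated WT lies above the other 2 libraries of its group.

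Lgr5 (ENSMUSG00000020140.14, chr10:115450311-115587780 on GRCm38, minus strand) encodes an R-spondin receptor and is the defining marker of crypt base stem cells. In untreated KO it stood at 21.7, 19.0 and 13.2 CPM (161, 156 and 111 counts). Under DSS the KO libraries held 0.707, 0 and 0.97 CPM (4, 0 and 7 counts), where the count of 0 allows up to 0.445 CPM. The groups were far apart, and Lgr5 fell by 4.96 on the log2 scale (SE 1.06, adjusted p = 0.0162). In untreated WT the 3 libraries disagreed, at 4.52, 0.328 and 9.27 CPM, and under DSS they held 3.19, 0.667 and 0 CPM. These WT groups overlapped, and the change of −1.86 ± 0.96 did not pass (adjusted p = 0.349), nor did that of −0.93 without replicate 3 of untreated WT (adjusted p = 0.710). Every untreated KO library exceeded every untreated WT library, yet the difference of 1.92 ± 0.83 did not pass either (adjusted p = 0.274), nor did it without replicate 3 of untreated WT (2.85, adjusted p = 0.110). The fall in KO missed the threshold without replicate 1 of untreated KO (adjusted p = 0.0528) and without replicates 1, 2 or 3 of KO under DSS (0.0588, 0.0732 and 0.0509).

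Rnf43 (chr11:87662722-87735539) and Znrf3 (chr11:5276324-5444847), the pair of ubiquitin ligases that clear Frizzled receptors and are themselves Wnt targets, passed in none of the 5 comparisons. Rnf43 read 31.6, 37.7 and 64.4 CPM in untreated WT and 34.3, 26.3 and 29.4 under DSS, and 41.1, 59.0 and 41.7 CPM in untreated KO and 40.7, 25.1 and 35.2 under DSS. Its log2 fold change with DSS was −0.57 ± 0.26 in WT (adjusted p = 0.271) and −0.49 ± 0.26 in KO (adjusted p = 0.392), and the value in WT was −0.21 without replicate 3 of untreated WT (adjusted p = 0.709). Znrf3 read 14.7, 13.0 and 28.6 CPM in untreated WT, 21.3, 15.5 and 14.4 in WT under DSS, 25.0, 25.1 and 21.6 in untreated KO and 21.7, 21.4 and 22.7 in KO under DSS. The highest untreated WT value of each ligase came from replicate 3, and the DSS comparisons of Znrf3 overlapped in both genotypes. Without that library, Znrf3 was 0.79 higher in untreated KO than in untreated WT on the log2 scale, with an adjusted p of 0.0529. Under DSS each KO library read higher for Znrf3 than each WT library, but the difference of 0.37 ± 0.27 did not pass (adjusted p = 0.601).

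Axin2 (ENSMUSG00000000142.14, chr11:108920349-108950783, plus strand) is a scaffold of the destruction complex, a widely used readout of Wnt signalling and a feedback inhibitor of it. It read 3.35, 7.55 and 7.42 CPM in untreated WT and 1.67, 2.13 and 0.326 CPM in WT under DSS (23, 46 and 48 against 11, 16 and 2 counts). The WT groups did not overlap, and Axin2 fell by 2.11 on the log2 scale (SE 0.55, adjusted p = 0.0333). In KO it read 4.58, 4.64 and 3.33 CPM untreated and 1.41, 1.93 and 1.39 under DSS. These groups did not overlap either, but the change of −1.39 ± 0.55 did not pass (adjusted p = 0.210), and the difference between the 2 responses was 0.71 ± 0.77 (interaction adjusted p = 0.863). The call in WT rested on few counts: the adjusted p was 0.106 and 0.0770 without replicates 2 and 3 of untreated WT, 0.0880 and 0.101 without replicates 1 and 3 of WT under DSS, and 0.0507 without replicate 1 of untreated KO, and 0.108 in the fit of these 2 groups alone. Axin2 shares 209 exonic bases with the antisense gene Gm11670 in GENCODE M21. The library protocol in the labels does not mark strand, so reads from the shared bases cannot be told apart here.

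Among the transcription factors, Ascl2 (ENSMUSG00000009248.5, chr7:142966829-142969264, minus strand), which specifies the crypt stem cell state, behaved unlike Sox9 (ENSMUSG00000000567.5, chr11:112782224-112787760, plus strand), which is made throughout the lower crypt. Ascl2 read 6.19, 9.89 and 9.03 CPM in untreated KO and 0.884, 0.445 and 0.554 CPM in KO under DSS (46, 81 and 76 against 5, 3 and 4 counts). The lowest untreated library was above each DSS library, and Ascl2 fell by 3.72 on the log2 scale (SE 0.82, adjusted p = 0.0193). In untreated WT it read 1.89, 1.31 and 12.8 CPM, so that replicate 3 alone reached the level of the KO libraries, and under DSS it read 1.37, 0.4 and 1.47. The DSS change in WT was −2.32 ± 0.77 with all libraries (adjusted p = 0.105) and −0.60 without replicate 3 of untreated WT (adjusted p = 0.672). The difference between untreated genotypes went from 0.65 (adjusted p = 0.739) to 2.37 (adjusted p = 0.0265) when that library was left out. The fall in KO missed the threshold without replicates 2 or 3 of untreated KO (adjusted p = 0.0600 and 0.0599) and without replicates 1, 2 or 3 of KO under DSS (0.0579, 0.0926 and 0.0850).

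Sox9 read 95.6, 99.5 and 99.4 CPM in KO under DSS and 56.5, 58.9 and 50.6 CPM in WT under DSS. The KO libraries lay close together and all above the WT libraries, and the log2 fold change was 0.83 ± 0.17 (SE, adjusted p = 0.0139). In untreated mice it read 60.6, 64.3 and 69.9 CPM in KO and 48.4, 50.9 and 78.7 CPM in WT, which overlapped (0.13 ± 0.17, adjusted p = 0.806, and 0.39, adjusted p = 0.107, without replicate 3 of untreated WT). Under DSS Sox9 differed from untreated by 0.60 ± 0.17 in KO (adjusted p = 0.0622) and by −0.10 ± 0.17 in WT (adjusted p = 0.848), and the difference between these responses was 0.70 ± 0.24 (unadjusted p = 0.0102, adjusted p = 0.230). Without replicate 3 of untreated WT the rise in KO had an adjusted p of 0.00728 at 0.59. That comparison uses no WT library, so its samples were the same and its size hardly moved. The rise in KO passed in 2 of the 12 fits that left out 1 library. The genotype difference under DSS missed the threshold without replicates 1 or 3 of WT under DSS (adjusted p = 0.0665 and 0.0767) and without replicates 2 or 3 of KO under DSS (0.0597 and 0.0524). Of the 10 genes, Sox9 had the highest level per kilobase of exon in all 4 groups, with group means of 13.4 to 23.7 CPM per kb.

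Smoc2 (ENSMUSG00000023886.9, chr17:14279506-14404790, plus strand) encodes a secreted calcium-binding matrix protein and is part of the stem cell signature of the intestine. In KO it read 52.0, 61.2 and 66.1 CPM untreated and 13.4, 20.2 and 11.4 CPM under DSS. Every DSS library was below every untreated one, and the log2 fold change was −1.99 ± 0.33 (SE, adjusted p = 0.00368). This call held in each of the 12 fits that left out 1 library. In WT it read 23.9, 25.3 and 63.7 CPM untreated and 19.0, 16.3 and 20.5 CPM under DSS. These groups did not overlap, but replicates 1 and 2 of untreated WT lay close to the DSS libraries, and the change was −1.02 ± 0.33 with all libraries (adjusted p = 0.0933) and −0.41 without replicate 3 (adjusted p = 0.388). Smoc2 was 0.67 ± 0.32 higher in untreated KO than in untreated WT on the log2 scale with all libraries (adjusted p = 0.334) and 1.28 higher without replicate 3 (adjusted p = 0.00586). The interaction moved likewise, from −0.98 ± 0.46 (adjusted p = 0.480) to −1.59 (adjusted p = 0.0126).

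Lrig1 (ENSMUSG00000030029.13, chr6:94604529-94700158, minus strand) encodes a transmembrane inhibitor of ErbB receptors and marks a stem cell pool that is quieter than the Lgr5 pool. It was the member that rose with DSS in WT: it read 12.1, 18.7 and 26.9 CPM untreated and 42.2, 36.1 and 30.3 CPM under DSS. The groups did not overlap, and the log2 fold change was 0.92 ± 0.25 (SE, adjusted p = 0.0443). In KO it read 32.6, 28.9 and 41.3 CPM untreated and 39.6, 34.4 and 31.6 CPM under DSS, which overlapped (0.04 ± 0.25, adjusted p = 0.970). Untreated KO libraries were all above untreated WT libraries (0.84 ± 0.25, adjusted p = 0.0914). The difference between the DSS responses was −0.88 ± 0.35 (unadjusted p = 0.0252, adjusted p = 0.361). Leaving out replicate 3 of untreated WT brought the adjusted p to 0.00578 for the rise in WT and to 0.0133 for the difference between untreated genotypes (1.16), and to 0.0652 for the interaction (−1.20). Leaving out any 1 of the other 11 libraries ended the call in WT, with adjusted p of 0.0504 to 0.178, and so did the fit of these 2 groups alone (0.124). Lrig1 shares 144 exonic bases with Slc25a26 on the opposite strand.

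Cd44 (ENSMUSG00000005087.16, chr2:102811141-102901665, minus strand) encodes the hyaluronan receptor, a Wnt target of crypt base cells that leukocytes also make. In KO it read 49.4, 51.3 and 38.5 CPM untreated and 24.2, 18.7 and 19.7 CPM under DSS. The groups did not overlap, and Cd44 fell by 1.15 on the log2 scale (SE 0.29, adjusted p = 0.0379). With the replicate number as a block the adjusted p was 0.0595, and leaving out any 1 of the 9 libraries of WT under DSS, untreated KO and KO under DSS gave 0.0521 to 0.141. In WT it read 39.1, 35.3 and 86.7 CPM untreated and 24.0, 31.7 and 30.0 CPM under DSS (−0.91 ± 0.28, adjusted p = 0.0837). Replicate 3 of untreated WT stood far above the other 2 libraries, and without it the change was −0.38 (adjusted p = 0.326). Between genotypes the log2 differences were −0.21 ± 0.28 untreated (adjusted p = 0.815, and 0.32, adjusted p = 0.430, without that library) and −0.46 ± 0.29 under DSS (adjusted p = 0.534).

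Ephb2 (ENSMUSG00000028664.13, chr4:136647539-136835988, minus strand) encodes the ephrin receptor that keeps crypt base cells in position, and it changed little with DSS in either genotype. It read 18.5, 16.9 and 20.7 CPM in untreated WT and 20.7, 17.9 and 18.4 CPM in WT under DSS, which overlapped (0.02 ± 0.21, adjusted p = 0.982). In KO it read 10.8, 16.2 and 14.5 CPM untreated and 17.0, 12.6 and 15.1 CPM under DSS (0.10 ± 0.21, adjusted p = 0.883). All KO libraries lay below all WT libraries, both untreated and under DSS. The difference of −0.43 ± 0.21 in untreated mice did not pass (adjusted p = 0.351), nor did that under DSS (−0.35 ± 0.21, adjusted p = 0.502).

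**Figure D2:**
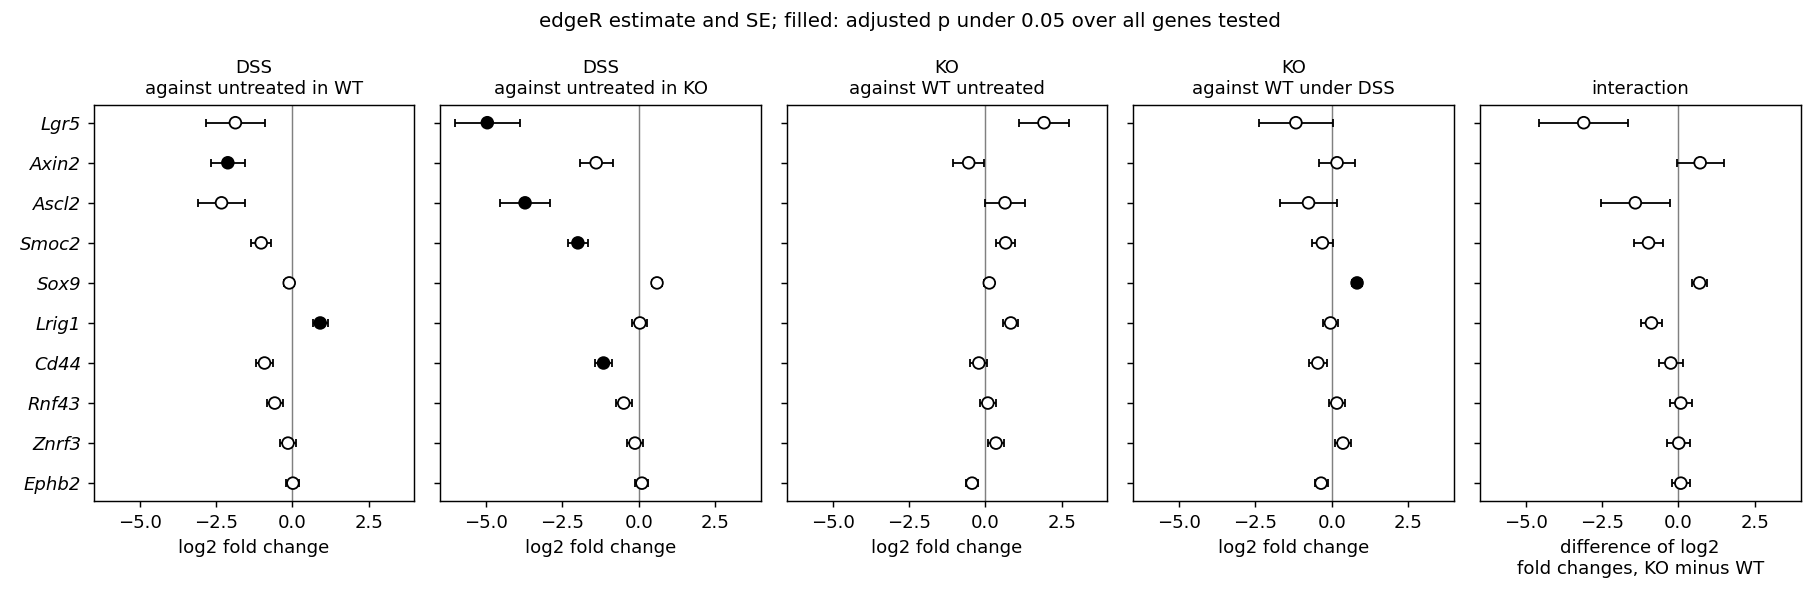
Log2 fold change of the 10 genes (points) with its SE (bars) in the 5 comparisons, one panel each; filled points have an adjusted p under 0.05 over all genes tested (edgeR), and the last panel is the DSS response in KO minus that in WT. Filled points are Axin2 and Lrig1 in the first panel, Lgr5, Ascl2, Smoc2 and Cd44 in the second and Sox9 in the fourth.

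Counted together, 1 of the 10 genes passed as higher and 1 as lower with DSS in WT, where 2.8% and 3.5% of all genes did so. In KO 4 of 10 passed as lower, where 2.04% of all genes did so, and none as higher, where 1.88% did. The median log2 fold change over the 10 genes was −0.74 in WT and −0.82 in KO, and over all genes it was 0.01 and 0.02. DESeq2 called 5 of the 10 in each genotype, and it also called more of all genes, 1057 in WT and 800 in KO against 789 and 491 with edgeR. Between untreated genotypes 0 of 10 passed with edgeR (2 at an unadjusted p under 0.05, Lgr5 and Lrig1, and 1 with DESeq2, Lrig1), where 1.72% of all genes passed as higher and 1.76% as lower, and the median of the 10 was 0.24. Under DSS 1 of 10 passed as higher and 0 as lower, where 1.77% and 1.34% of all genes did, and the median of the 10 was −0.18. In the interaction 0 of 10 passed with edgeR (2 at an unadjusted p under 0.05, Sox9 and Lrig1, and 0 with DESeq2), where 1.17% of all genes passed as higher and 0.527% as lower, and the median of the 10 was −0.12.

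Without replicate 3 of untreated WT, 3 of 10 genes (Smoc2, Lrig1 and Ascl2) were higher in untreated KO than in untreated WT. Of all genes 5.59% passed there, counting both directions, as do the other shares in this paragraph. In the DSS comparison in WT only Lrig1 passed then, where 7.39% of all genes did, and Axin2 read −1.95 (adjusted p = 0.0770). In the interaction Smoc2 passed as lower, where 2.7% of all genes passed in either direction. The median over the 10 genes was then −0.30 for DSS in WT, −0.83 for DSS in KO, 0.62 between untreated genotypes and −0.60 in the interaction. Comparisons that do not use untreated WT kept all their samples in this fit. Their calls could still change, because the spread, the scaling and the set of genes tested were estimated over all libraries left. The 2 DSS comparisons share no samples with each other, whereas each shares its untreated group with the comparison of untreated genotypes.

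**Figure D3:**
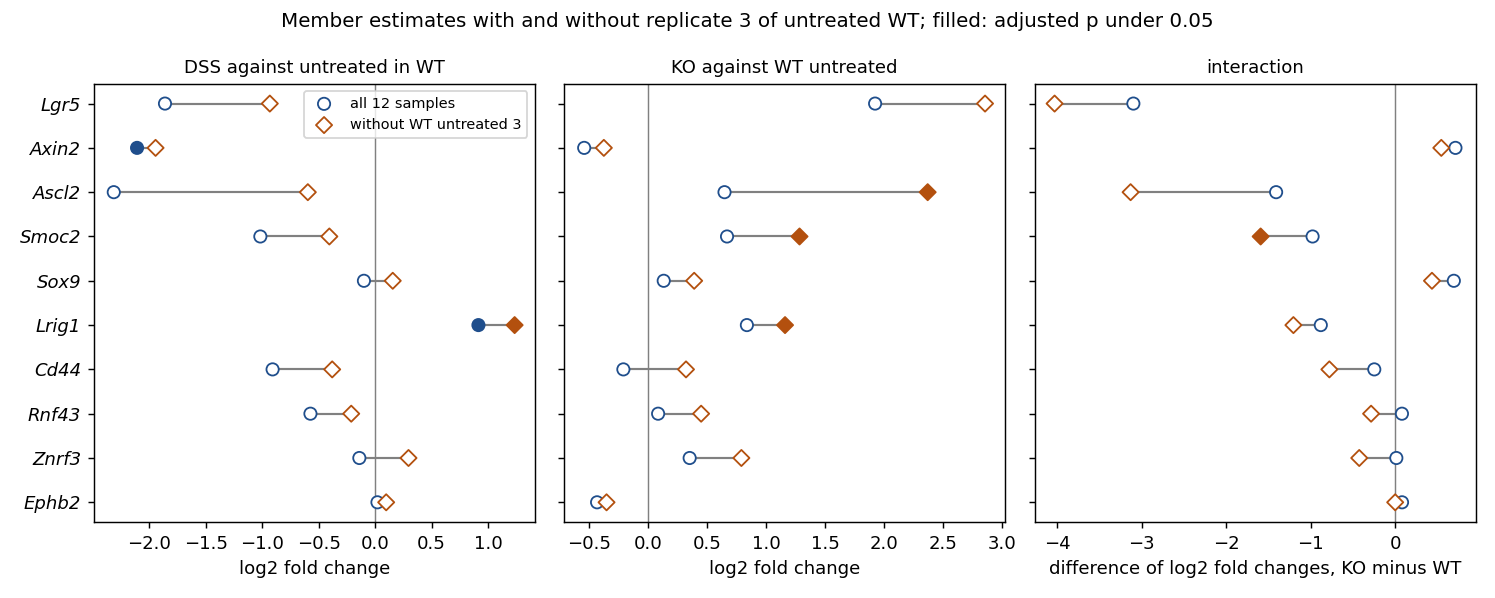
Log2 fold change of the 10 genes (horizontal axes) in the 3 comparisons that use untreated WT, with all 12 samples (circles) and without replicate 3 of untreated WT (diamonds); filled symbols have an adjusted p under 0.05 (edgeR). Leaving out the library moved Ascl2 from 0.65 to 2.37 and Smoc2 from 0.67 to 1.28 between untreated genotypes, and moved Ascl2 from −2.32 to −0.60 in the DSS comparison in WT.

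Ordered by mean CPM per kb of exon, Sox9 led in each group, and in untreated WT each gene's range overlapped that of its next neighbour. Lgr5 was last in untreated WT, WT under DSS and KO under DSS, with means of 0.458, 0.125 and 0.0545 CPM per kb. In untreated KO it read 1.75 CPM per kb, above Ephb2 (1.10, overlapping) and Axin2 (0.759, lowest). Lrig1 had a mean of 3.44 CPM per kb in untreated WT, below Smoc2 (5.41, overlapping), and had the next highest mean after Sox9 in WT under DSS (6.49) and in KO under DSS (6.30, overlapping Rnf43). Smoc2 had the next highest mean after Sox9 in untreated KO (8.59 CPM per kb, overlapping Rnf43 and Cd44). In KO under DSS its mean was 2.16, below Lrig1 and Rnf43 and, with overlap, below Cd44 and Znrf3.

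Other genes of the crypt base and of the Wnt pathway were examined as lists. Of 17 further stem and progenitor genes, 12 could be tested, and 3 passed with DSS in WT. Prom1, which encodes a membrane glycoprotein of stem and progenitor cells, read 402 to 490 CPM in untreated WT and 152 to 191 under DSS (−1.38 ± 0.13, adjusted p = 1.23e-05). Cdca7, a Myc target, read 56.1 to 107 against 38.5 to 52.5 CPM (−0.76 ± 0.20, adjusted p = 0.0340), and Lgr4, an R-spondin receptor related to Lgr5, read 99.4 to 125 CPM untreated and 146 to 165 CPM under DSS (0.45 ± 0.11, adjusted p = 0.0283). In KO Cdca7 (−1.05 ± 0.20, adjusted p = 0.00892) and Prom1 (−0.56 ± 0.13, adjusted p = 0.0287) fell and none rose. Prom1 was also lower in untreated KO than in untreated WT (−0.82 ± 0.13, adjusted p = 0.00269), and its DSS response differed between genotypes (0.82 ± 0.19, adjusted p = 0.0355). The list's median log2 fold change was −0.29 in WT and −0.11 in KO. Without replicate 3 of untreated WT, Prom1 was the 1 gene of the list that passed with DSS in WT, Cdca7 (−0.48, adjusted p = 0.118) and Lgr4 (0.36, adjusted p = 0.0731) no longer did, and 3 passed as lower in KO. Hopx, Lgr6, Msi1 and Olfm4 stayed under 1 CPM in all 12 libraries.

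Of 16 further Wnt targets and feedback genes only 5 could be tested, and Apcdd1, Nkd2, Notum and Sp5 stayed under 1 CPM in every library while Dkk1 and Dkk2 had no count. Ccnd1, which encodes cyclin D1, rose with DSS in WT and was lower in KO than in WT. It read 105 to 121 CPM in untreated WT and 153 to 166 under DSS, a rise of 0.53 ± 0.12 on the log2 scale (adjusted p = 0.0128). In KO it read 72.1 to 83.6 CPM untreated and 55.3 to 68.9 under DSS, below every WT library (−0.51 ± 0.12, adjusted p = 0.0272 untreated, and −1.34 ± 0.12, adjusted p = 1.49e-05 under DSS). The interaction of Ccnd1 was −0.83 ± 0.17 (adjusted p = 0.0156). Pdk1, a kinase that restrains pyruvate dehydrogenase, rose in WT, with 82.0 to 90.7 CPM untreated and 148 to 155 CPM under DSS (0.82 ± 0.12, adjusted p = 0.000698). In KO it read 106 to 135 CPM untreated and 145 to 184 CPM under DSS, without overlap. Its DSS change in KO and its interaction each had an unadjusted p under 0.05 (edgeR), and neither passed after adjustment. Tcf7, a TCF/LEF factor that T cells also make, was near 0 in untreated WT (0 to 0.437 CPM) and higher in WT under DSS (1.63 to 2.40 CPM, adjusted p = 0.0166) and in untreated KO (2.73 to 3.23 CPM, adjusted p = 0.00933).

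Upstream of the target genes little passed. None of 17 Wnt and R-spondin ligand genes had enough counts to be tested, 8 of them had no count in any library, and the list summed to 0.673 to 3.24 CPM per library. Of 15 Frizzled, LRP and related receptor genes 10 could be tested, and 0 passed with edgeR or DESeq2 in any of the 5 comparisons; at an unadjusted p under 0.05 there was 1 with DSS in WT (Fzd6) and 1 between genotypes under DSS (Fzd1). Lrp6, an LRP coreceptor, read 36.1 to 53.4 CPM and Fzd5 23.7 to 56.3 CPM over all 12 libraries. Of 18 destruction complex and effector genes 17 could be tested, and 1 passed in 1 comparison. That gene was Tcf7l1, a TCF factor known mainly as a repressor, which rose with DSS in WT, with 21.8 to 23.8 CPM untreated and 34.1 to 40.5 CPM under DSS (0.74 ± 0.17, adjusted p = 0.0165).

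All 20 proliferation genes could be tested, and DSS lowered 10 of them in KO and 1 in WT (Rrm2, −0.97 ± 0.24, adjusted p = 0.0219). Of all genes 2.04% passed as lower in KO and 3.5% in WT. At an unadjusted p under 0.05 (edgeR) there were 17 of the 20 in KO and 9 in WT, and DESeq2 called 15 in KO and 3 in WT. The list's median log2 fold change was −0.80 in KO and −0.32 in WT. The genes with the smallest adjusted p in KO encode subunits of the replicative helicase: Mcm5 read 62.9 to 76.9 CPM untreated and 22.7 to 29.9 CPM under DSS (−1.49 ± 0.18, adjusted p = 0.000234), Mcm6 changed by −1.49 ± 0.18 (adjusted p = 0.00027) and Mcm3 by −1.38 ± 0.18 (adjusted p = 0.000626). Under DSS 4 of the 20 were lower in KO than in WT (Mcm7, Mcm5 and Mcm3, the last 2 both at −1.07, and Mcm6, at −0.96). Between untreated genotypes 1 was higher in KO, Cdc20, an activator of the anaphase-promoting complex (0.53 ± 0.13, adjusted p = 0.0313), and in the interaction Mcm5 (−1.26) and Mcm6 (−1.06) passed as lower. The summed level of the list was 1356 to 2007 CPM in untreated WT, 1241 to 1278 in WT under DSS, 1820 to 1934 in untreated KO and 1113 to 1167 in KO under DSS. Rrm2 in WT read −0.77 (adjusted p = 0.0747) without replicate 3 of untreated WT. In that fit 15 of the 20 passed as lower with DSS in KO, none passed with DSS in WT, 6 were higher in untreated KO, and 5 passed as lower in the interaction. The DSS comparison in KO held the same libraries in both fits, and its list median stayed at −0.80. Its larger count came with a changed estimate of the spread, which the 4 groups share, and a changed set of genes tested. Over all genes 235 to 710 passed for DSS in KO when 1 library was left out. The part of dividing cells in the changes of the 10 genes was not tested.

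**Figure D4:**
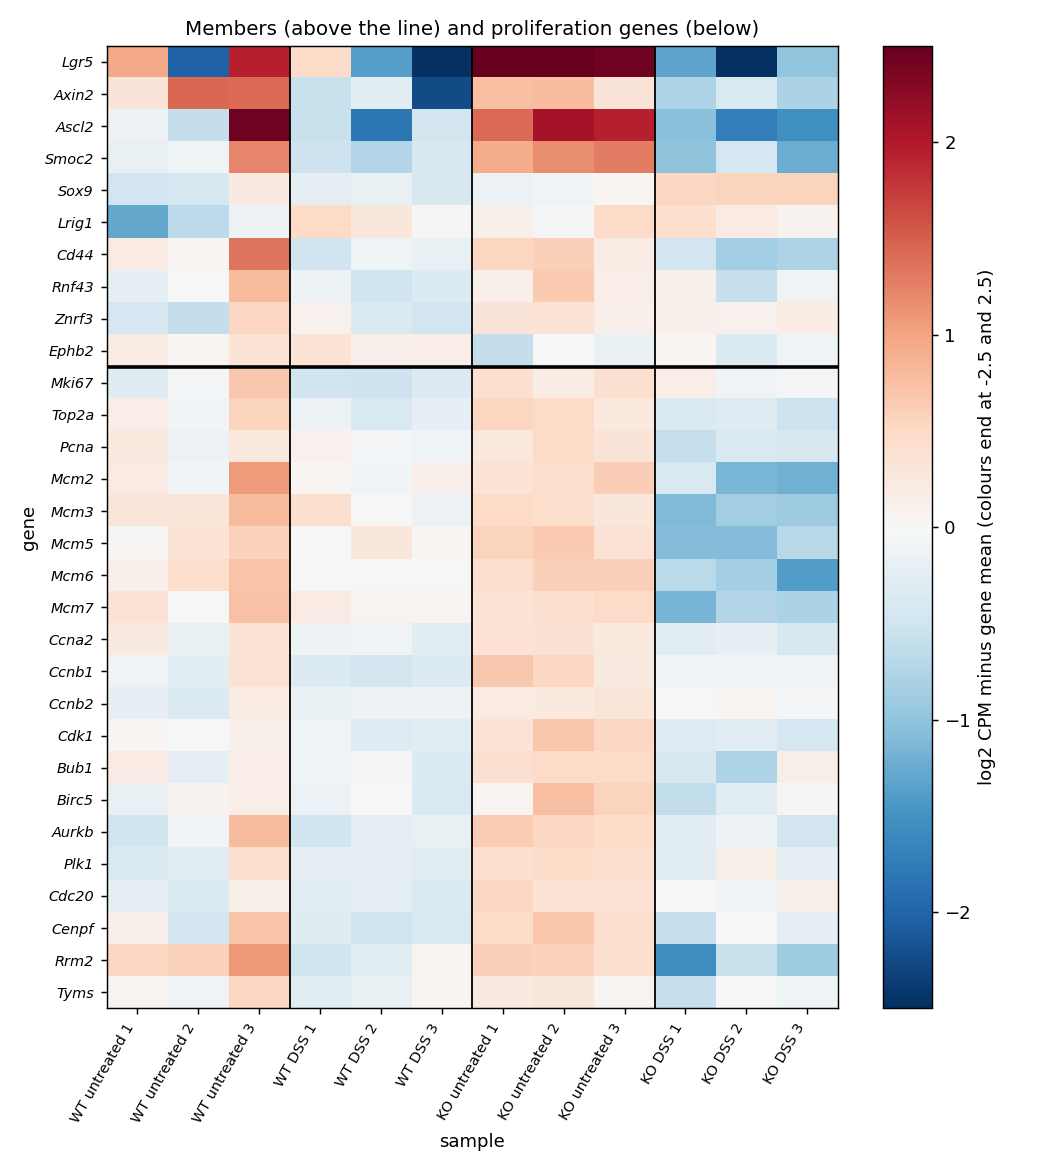
Log2 CPM minus the gene's mean over the 12 samples (colour; red is above and blue below the mean, white is at it) for the 10 genes above the black line and the 20 proliferation genes below it (rows), in 12 samples in 4 groups (columns). Lgr5, Ascl2, Smoc2, Cd44 and the Mcm genes are red in untreated KO and blue in KO under DSS, and WT untreated 3 is redder than the other 2 libraries of its group for most rows.

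By the smallest root mean square difference of mean-centred log2 CPM over the 12 samples, among the 8860 genes whose log2 CPM averaged 3 or more, the profiles most like Smoc2 were Ces1g (0.33), Esco2 (0.36) and Hells (0.40), against a median of 0.91 over all these genes. For Cd44 they were Pola2 (0.26), Cdca7 (0.27) and Ncapd2 (0.28), against 0.66. For Sox9 they were Stat5b (0.17), Tor1aip1 (0.18) and Stk11ip (0.18), against 0.46. For Lrig1 they were Clic6 (0.20), 2310007B03Rik (0.23) and Spryd4 (0.24), against 0.56. These values describe likeness over samples that share groups and libraries.

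Markers of mature and of other cells moved in the same comparisons. Of 16 genes of differentiated colonocytes, 13 passed as lower and 1 as higher with DSS in WT, and 11 as lower and 1 as higher in KO. These counts were 13 and 0 in WT and 12 and 1 in KO without replicate 3 of untreated WT. The apical sodium-proton exchanger Slc9a3 read 119 to 135 CPM in untreated WT and 9.13 to 12 under DSS (−3.59 ± 0.15, adjusted p = 3.66e-09), and in KO it changed by −2.45 ± 0.14 (adjusted p = 6.83e-07). The colonocyte list summed to 19554 to 22302 CPM in untreated WT, 12425 to 13369 in untreated KO, 7240 to 7403 in WT under DSS and 7029 to 7659 in KO under DSS. Epithelial identity genes, led by the keratins Krt8 (9859 to 14486 CPM over all libraries) and Krt19 (4712 to 7121 CPM), summed to 22007 to 31364 CPM over the 12 libraries. Of these 10 genes, the intestinal transcription factor gene Cdx2 fell with DSS in WT (−1.52, adjusted p = 9.21e-06) and in KO (−0.76, adjusted p = 0.00727), and Vil1, which encodes an actin-binding protein of the brush border, was lower in KO than in WT under DSS (−0.55, adjusted p = 0.0386). Without replicate 3 of untreated WT, 4 of the 10 passed as lower with DSS in WT and 3 in KO, against 1 and 1 with all libraries. In that fit 5 were lower in untreated KO than in untreated WT and 3 under DSS, against 0 and 1. The interaction then had 2 passing as higher, against 0. Cdx2 and Vil1 lie outside the rule for named genes and were named after their values were seen. Goblet cell genes, led by Clca1 and the mucin Muc2, summed to 19087 to 30512 CPM in untreated WT, 14775 to 17137 in WT under DSS, 13566 to 15068 in untreated KO and 26394 to 30488 in KO under DSS.

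Leukocyte genes were present throughout, and of 22 listed 13 could be tested. With DSS 7 passed as higher in WT and 1 in KO, and KO exceeded WT in 6 untreated and in 4 under DSS. Without replicate 3 of untreated WT, 4 passed as higher with DSS in WT and 2 in KO, and KO still exceeded WT in 6 untreated and in 4 under DSS. The list summed to 1247 to 1733 CPM in untreated WT, 1941 to 2444 in WT under DSS, 2308 to 2404 in untreated KO and 2139 to 2326 in KO under DSS, mostly from Cd74 (1214 to 2375 CPM), which injured epithelium also makes. Ptprc, which encodes CD45, read 6.95 to 11.8 CPM in untreated WT, 13.5 to 15.5 in WT under DSS, at least 21.4 in untreated KO and 28.9 to 47.2 in KO under DSS. A further fit took the mean log2 CPM of the listed leukocyte genes as a covariate, with each gene counting alike. In it Sox9 under DSS was the only call of the 10 genes that remained past the threshold, at 1.21 (adjusted p = 0.0230). In that fit the other calls had adjusted p of 0.302 to 0.963. Axin2 in WT read −1.67 and Lrig1 in WT 1.54, and in KO Lgr5 read −3.71, Ascl2 −1.16, Smoc2 −0.86 and Cd44 0.06. Leukocyte levels differed between the groups, so this fit cannot tell them apart from other differences between groups. All genes passing fell with it, from 789 to 144 for DSS in WT, from 491 to 88 in KO and from 390 to 113 between genotypes under DSS. Stromal genes, led by Pdgfrb and Vim with Lum and Pdgfra at 0, summed to 5.10 to 28.8 CPM. Of 14 stromal genes 3 could be tested, and 1 passed, Vim, an intermediate filament gene of mesenchymal cells and leukocytes. Vim was higher in KO than in WT untreated (1.34, adjusted p = 0.0300, and 1.18, adjusted p = 0.0589, without replicate 3 of untreated WT). It was also higher under DSS (1.52, adjusted p = 0.0130), the comparison in which Sox9 passed. The median log2 fold change of the 3 was −0.56 under DSS, so the other tested stromal genes went the other way there. Endothelial genes (Vwf and Pecam1, with Kdr at 0) summed to 0.155 to 8.04 CPM. The part of leukocytes, of stromal cells and of mature epithelial cells in the results for the 10 genes was not tested.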

How the data were processed

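RNA of colonic epithelial cells in 12 mouse samples was sequenced; the authors deposited 1 table of whole-number read counts per gene for each sample, unnormalized. Per the submitters' processing notes, STAR 2.5.2b and featureCounts 1.5.0 were used with the builds GRCm38 and mm10; the annotation and the strand setting are not given in the sources used here. Per the labels' protocols, Smart-seq2 libraries were made from 2 ng of RNA (integrity numbers 7.2 to 9.2), a protocol that does not mark strand.

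Symbols and positions came from GENCODE M21 (46005 of 46517 IDs matched). Genes were filtered with filterByExpr in edgeR 4.0.16 (R 4.3.3), leaving 12522 with 99.8% of counts, scaled by TMM and fitted by quasi-likelihood with 1 coefficient per group over all 12 samples; 5 contrasts were tested with Benjamini-Hochberg adjustment over all genes tested. Standard errors are the absolute log2 fold change divided by the root of F. Log2 CPM used a prior count of 2. The scripts were tested on simulated data. The 3 replicates of a group are separate mice only as far as "biological" in the labels says; no pair agreed within sampling noise. The members and gene lists were chosen with earlier results of these data known. The text names all 10 members, Nfkb2, up to 3 passing genes per pathway list and comparison by smallest adjusted p, the 2 most abundant markers per other cell type (1 marker list is not reported here), and the 3 profiles most like each member that passed and whose log2 CPM averaged 3 or more.

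Alternatives were DESeq2 1.42.0 and its size factors, other count filters, a replicate block, a leukocyte covariate, the 2 groups alone and leaving out each library; lists without replicate 3 of untreated WT were added after seeing the data. Replicate numbers were checked for pairing by correlating same-numbered deviations from group means. Each pair was over 0.1 for DSS in KO (0.204, 0.106 and 0.127), and replicates 2 and 3 were for DSS in WT. The blocked value is given for these 2 comparisons where it changed a call.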

Additional observations from a re-analysis of the deposited data

Results flagged for a closer look

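The DSS response differed between genotypes, by the interaction test of edgeR with adjustment over all genes, for 12 of the genes that the naming rule takes from the lists and for none of the 10 members. For most lists that rule takes genes because they passed, so the 12 cannot be set against the count of members. Over all genes tested 1.7% passed. Reg4, a goblet cell gene that the rule leaves out, passed as well (2.25, adjusted p = 0.00179). Each value is the log2 response in KO minus that in WT, with 3 samples in each of the 4 groups. Among crypt and Wnt genes it was 0.82 for Prom1 (adjusted p = 0.0355) and −0.83 for Ccnd1 (adjusted p = 0.0156), and among proliferation genes −1.26 for Mcm5 (adjusted p = 0.0123) and −1.06 for Mcm6 (adjusted p = 0.0483). For 6 colonocyte genes that each fell with DSS in both genotypes it was 1.69 for Car1, a carbonic anhydrase (adjusted p = 0.000199), 1.60 for Emp1, a membrane protein (adjusted p = 0.000211), 1.73 for Tmigd1, an adhesion molecule (adjusted p = 0.00133), 2.03 for Clca4a (adjusted p = 0.00476), 1.13 for Slc9a3 (adjusted p = 0.00675) and 0.61 for Ceacam1 (adjusted p = 0.0114). Among goblet cell genes the difference was 2.34 for Clca1 (adjusted p = 5.55e-05), which fell by 1.05 in WT and rose by 1.29 in KO, and 0.84 for Muc2 (adjusted p = 0.00456), which rose by 0.70 in KO. Without replicate 3 of untreated WT all 12 kept their direction and their place past the threshold, with values from 0.70 for Ceacam1 to 2.56 for Clca1 among the positive ones and −1.41 for Mcm5, −1.22 for Mcm6 and −0.80 for Ccnd1.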

How the results depend on the processing

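The count of members past the threshold depended on the fit. For DSS in WT it was 2, and 5 with DESeq2, 6 with no filter and 1 with at least 10 counts in every sample (which removes Lgr5, Axin2 and Ascl2). It was 0 with the leukocyte covariate, 0 with the 2 groups alone and 0 to 3 with 1 library left out. All genes passing were 789, and 1057 with DESeq2, 1017 with no filter and 738 with at least 10 counts in every sample. They were 144 with the covariate, 467 with the 2 groups alone and 483 to 958 with 1 library left out. For DSS in KO it was 4, and 2 with at least 10 counts in every sample, 0 with the covariate and 1 to 5 with 1 library left out; all genes passing were 491, and 800 with DESeq2, 776 with no filter, 88 with the covariate and 235 to 710. For untreated genotypes it was 0, and 1 with DESeq2, 2 with no filter and 0 to 3 with 1 library left out; all genes passing were 436, and 790, 703, 63 (covariate), 195 (2 groups alone) and 212 to 725. Under DSS it was 1 and 0 to 1 with 1 library left out; all genes passing were 390, and 661 with DESeq2, 642 with no filter, 113 with the covariate and 160 to 566. In the interaction it was 0, and 1 with no filter and 0 to 1; all genes passing were 213, and 360, 356 and 152 to 350. The cause was not tested.

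With the replicate block, 1 member passed for DSS in WT instead of 2 (Lrig1, adjusted p = 0.0684), and Znrf3 in the interaction read −0.0204; Cd44 in KO was the other call that changed. Same-numbered samples correlated at −0.173, −0.175 and −0.053 between untreated genotypes and −0.012, −0.010 and −0.117 under DSS, so the numbers do not pair the samples there. For DSS in WT they correlated at 0.014, 0.120 and 0.128, so replicates 2 and 3 were over 0.1 and replicate 1 was not. Whether the numbers pair the WT samples is not settled by these values.

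With the leukocyte covariate, 18 log2 fold changes changed sign: for DSS in WT, Lgr5 0.26, Ascl2 2.20, Smoc2 0.84, Sox9 0.60, Cd44 0.97, Rnf43 0.35 and Znrf3 0.87; for DSS in KO, Cd44 0.0568, Rnf43 0.11 and Znrf3 0.51; for untreated genotypes, Cd44 1.48; under DSS, Ascl2 1.31, Smoc2 0.63, Lrig1 0.28 and Cd44 0.57; in the interaction, Rnf43 −0.25, Znrf3 −0.36 and Ephb2 −0.00386. None of these was past the threshold.

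Leaving out 1 library changed the sign of 13 log2 fold changes that had not passed. For DSS in WT, Sox9 ranged from −0.23 to 0.16, Znrf3 from −0.35 to 0.30 and Ephb2 from −0.0473 to 0.0978; for DSS in KO, Lrig1 from −0.0756 to 0.19 and Ephb2 from −0.0510 to 0.23; for untreated genotypes, Cd44 from −0.44 to 0.32 and Rnf43 from −0.12 to 0.45; under DSS, Lgr5 from −1.91 to 0.61, Axin2 from −0.27 to 0.63 and Lrig1 from −0.16 to 0.0795; in the interaction, Rnf43 from −0.28 to 0.27, Znrf3 from −0.42 to 0.22 and Ephb2 from −0.0703 to 0.21. Depth limits Lgr5, Axin2 and Ascl2, whose libraries under DSS held 0 to 21 counts.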
